A study of Homo sapiens with 54 samples.

Results

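The genes described here are 42 human interferon-stimulated genes, chosen from a list of symbols that mark the type I interferon response and found by exact symbol in the count tables of a breast cancer cell line. All 42 were present among the 26517 gene symbols of every table. By role they comprised 19 antiviral effectors, namely MX1, MX2, IFIT1, IFIT2, IFIT3, IFIT5, OAS1, OAS2, OAS3, OASL, RSAD2, ISG20, SAMD9, SAMD9L, TRIM22, BST2, IFITM1, CMPK2 and PLSCR1. A further 3 were sensors of viral RNA or proteins that act with them (IFIH1, DDX58 and DDX60). The ISG15 conjugation system gave 5 (ISG15, UBE2L6, HERC5, HERC6 and USP18). They also comprised 3 transcription factors (STAT2, IRF7 and IRF9), 3 secreted proteins (CXCL10, CXCL11 and LGALS3BP) and 9 other induced genes (IFI6, IFI27, IFI35, IFI44, IFI44L, XAF1, EPSTI1, PARP9 and PARP14).

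Type I interferons bind the receptor subunits IFNAR1 and IFNAR2, whose kinases JAK1 and TYK2 phosphorylate STAT proteins such as STAT2. STAT2 and IRF9 are parts of the complex ISGF3, which binds the interferon-stimulated response element in promoters of the genes above. Many tumour cells keep a low level of this programme in the absence of added interferon, and glucocorticoids are known to dampen it in other cell types.

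The cells were BT549, an established line from a human triple-negative breast tumour of mesenchymal type, and the 54 RNA sequencing libraries formed 18 groups of 3 in 3 experiments. The GATA6 experiment used siCtl or a SMARTpool siRNA against the transcription factor GATA6 for 72 h. Its cells then had vehicle or the synthetic glucocorticoid dexamethasone (DEX) at 500 nM for 2 h. The BRM014 experiment used DMSO, 500 nM DEX, 10 µM BRM014 or the combination for 4 h or 24 h, and the cells given DEX without BRM014 also had DMSO. BRM014 blocks the ATPase subunits of SWI/SNF, which remodels chromatin. The 24 h groups are as the sample labels name them, while the shared treatment text lists shorter times only. In the AP1 experiment, cells received siCtl, siFRA1 or siJUN with vehicle or 500 nM DEX, for a time the labels do not give; FRA1, encoded by FOSL1, and JUN are subunits of the transcription factor AP-1. All groups were of this single line with a genotype labelled WT. According to the labels no group received interferon or a virus. Nothing in the labels says beyond the words Biorep and replicate that the 3 libraries of a group came from separate cultures. The p-values therefore refer to variation among libraries, which may be technical.

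Promoter sequences from RefSeq (GRCh38.p14, 250 bases before to 50 after a gene's start) were found for 35 of the 42 genes; MX2, IFIT2, OAS2, OASL, TRIM22, USP18 and IRF7 had no entry. The letters GAAA, any 2 bases and GAAA again, a spelling of the interferon-stimulated response element, were searched on both strands. They occurred in the promoters of 24 of the 35 (68.6%), against 4.38% of all 27303 genes with an entry. The 250 bases upstream of the IFIT1 start are shown because they hold 2 such matches within a short distance, on the strand opposite to the gene, in capitals:

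IFIT1 chr10:89392373-89392622 (+): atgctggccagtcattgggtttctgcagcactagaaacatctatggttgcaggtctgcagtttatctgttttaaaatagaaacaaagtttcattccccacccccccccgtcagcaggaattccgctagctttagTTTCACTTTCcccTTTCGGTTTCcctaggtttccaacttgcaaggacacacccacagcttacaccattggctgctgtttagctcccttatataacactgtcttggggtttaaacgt

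Windows of 30 bases around a match follow for genes with different responses described later, with matching letters in capitals and each read 5′ to 3′ on the gene's own strand:

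ISG15 chr1:1013374-1013403 (+): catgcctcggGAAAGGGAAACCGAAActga
MX1 chr21:41420559-41420588 (+): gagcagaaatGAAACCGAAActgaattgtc
RSAD2 chr2:6877622-6877651 (+): ctgtttcaacTTTCAGTTTCacatgtggaa
OAS3 chr12:112938321-112938350 (+): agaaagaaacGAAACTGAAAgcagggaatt
EPSTI1 chr13:42992272-42992301 (-): ctgattctgaGAAACCGAAActcagctgtt
IFI6 chr1:27672329-27672358 (-): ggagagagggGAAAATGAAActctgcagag
LGALS3BP chr17:78979962-78979991 (-): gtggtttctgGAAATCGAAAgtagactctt
CXCL10 chr4:76023699-76023728 (-): tcatgttttgGAAAGTGAAAcctaattcac

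In ISG15 the capitals cover 2 overlapping matches. The letters TTCNNNGAA, a spelling of the STAT site searched in the same way, occurred in 12 of the 35 promoters (34.3%, against 9.38% of all genes). The AP-1 letters TGANTCA occurred in 5 (14.3%, against 9.37%), the GATA letters AGATAA in 6 (17.1%, against 12.4%), and the glucocorticoid receptor palindrome (AGAACA, any 3 bases, TGTTCT) in 0, against 1 gene of all. These matches describe the letters in the window and were not tested for binding of a factor. In the GENCODE 29 annotation of GRCh38, 21 of the 42 genes lay in 9 groups of neighbours at most 200000 bases apart, such as IFIT2, IFIT3, IFIT1 and IFIT5 at chr10:89283694-89421001 and OAS1, OAS3 and OAS2 at chr12:112906777-113011723. Exons of 11 genes overlap those of another gene, among them MX1, IFIT2 (with LIPA), OAS1, RSAD2 and CMPK2 (with each other), IFITM1, ISG15 and IRF9. The strand setting of the counting is not known here, so reads of such partners cannot be told apart.

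Libraries held 10186607 to 30530736 counts. Vimentin (VIM), a mesenchymal marker, had group means of 1401 to 2351 CPM (counts scaled to library size with TMM factors), while EPCAM, ESR1 and PGR stayed at or under 0.151 CPM. The summed level of 7 immune cell markers was 0.512 to 9.22 CPM per library, with CLEC4C at 0 counts throughout and CD14 reaching a group mean of 5.59 CPM. The siRNA targets fell: GATA6 from 85.2 ± 6.51 to 10.3 ± 0.164 CPM, FOSL1 from 172 ± 11.6 to 46.8 ± 5.22 CPM and JUN from 280.4 ± 12.0 to 99.1 ± 13.1 CPM (SD, n = 3). FKBP5, a glucocorticoid receptor target, rose from 1.18 ± 0.138 to 1344 ± 63.8 CPM after 24 h of DEX. Values are not compared across experiments, because the labels give the RNA as total in 2 of them and as polyA in the AP1 experiment.

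In control cells, given siCtl with vehicle or DMSO, the programme was active at unequal levels. Cells without siRNA or DMSO were not among the groups. Per kilobase of exon, IFI6, a mitochondrial protein that limits apoptosis, was the highest of the 42 in the control group of each experiment, with means of 686, 617 and 596 CPM per kb in siCtl vehicle (GATA6), DMSO 24 h and siCtl vehicle (AP1) cells in turn. BST2 (tetherin), IFITM1 and ISG15 followed in the siCtl vehicle cells of the GATA6 experiment at 291, 270.4 and 177 CPM per kb, and MX1 was at 42.8. The chemokines CXCL10 and CXCL11 were the lowest in the AP1 control at 0.296 and 0.0475 CPM per kb. CXCL11 was too low to be tested in any experiment and CXCL10 could be tested in the AP1 experiment only. In all, 40, 40 and 41 genes passed the filter on low counts in the GATA6, BRM014 and AP1 experiments. Genes encoding interferons themselves were barely counted: over all 54 libraries IFNB1 had 67 counts, IFNA1 28, IFNL1 25, IFNW1 8 and IFNG 1, while IFNE, the interferon of epithelia, was counted in all 18 groups. In siCtl, siFRA1 and siJUN vehicle cells of the AP1 experiment IFNB1 had 3, 16 and 10 counts and IFNL1 2, 2 and 16. With DEX IFNB1 had 0, 1 and 4 there and IFNL1 0, 0 and 2. Their part in the results below was not tested. For a group with 0 counts, 3 counts in its summed libraries would correspond to 0.0379 to 0.0916 CPM, so lower levels of these ligands were not detectable at this depth. Such limits cover counting error only.

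The 42 genes swung together between replicates of the same group. Their share of all counts in siCtl vehicle cells of the GATA6 experiment was 0.380%, 0.283% and 0.472% in replicates 1 to 3, in DMSO 24 h cells 0.643%, 0.313% and 0.454%, and in siCtl vehicle cells of the AP1 experiment 0.867%, 0.464% and 0.820%. Replicate 2 had the lowest share in 4 of 4, 8 of 8 and 6 of 6 groups of the GATA6, BRM014 and AP1 experiments. Over the 40 genes, the ratio of the highest to the lowest library within a group had a median of 1.62 (range 1.10 to 2.54) in siCtl vehicle cells of the GATA6 experiment and of 2.08 (1.18 to 7.32) in DMSO 24 h cells.

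**Figure D1:**
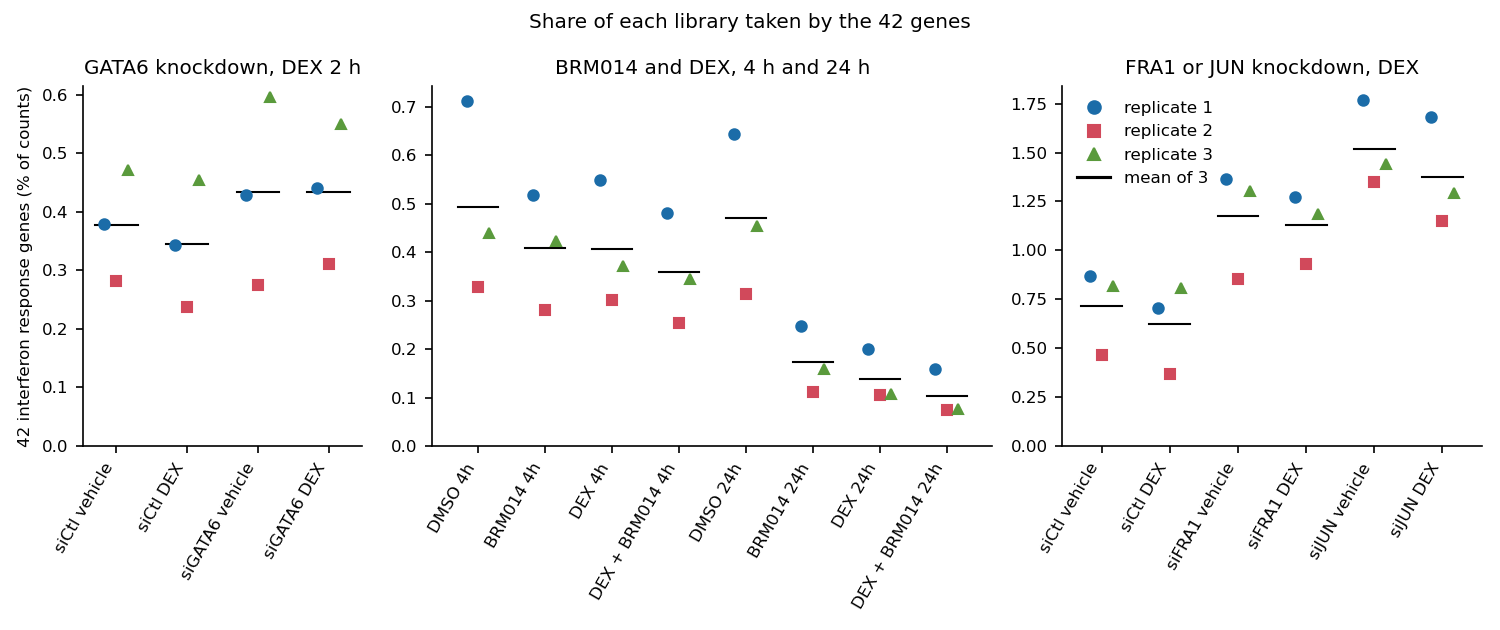
Percent of each library's counts assigned to the 42 genes (vertical axis) by group (horizontal axis) in the 3 experiments; symbols mark replicates 1 to 3 and black bars the mean of 3. Replicate 2 (squares) is the lowest in every group, the 24 h DEX and BRM014 groups lie between 0.0737% and 0.248%, and the siJUN groups between 1.15% and 1.77%.

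A term for the replicate number was past an adjusted p of 0.05 (edgeR's quasi-likelihood test, Benjamini-Hochberg over all tested genes) for 40 of 40 genes in the GATA6 experiment, 38 of 40 in the BRM014 experiment (ISG20 and STAT2 were not) and 41 of 41 in the AP1 experiment. Over all tested genes the shares were 12.3%, 16.4% and 31.3%. The median log2 difference of replicate 2 from replicate 1 over these genes was -0.48, -1.07 and -0.65, while the median over all genes was -0.00, 0.00 and 0.00. A median near 0 does not mean that other genes were steady. In the BRM014 experiment 37.7% of all tested genes lay below their group mean in replicate 2 of BRM014 24 h. In replicate 3 of the combined treatment at 24 h 59.4% did. Replicate 2 was the lowest in every group for 37 of 40, 14 of 40 and 30 of 41 genes, against 5.58%, 0.495% and 3.92% of all tested genes. The MX1 gene, which encodes a GTPase that blocks influenza and other viruses, shows the size of this: its levels were 359, 260.4 and 485 CPM in siCtl vehicle cells of the GATA6 experiment and 880.1, 399.8 and 658 CPM in DMSO 24 h cells. What differed between the replicate numbers is not given in the labels. The main test ignores the replicate number, and where same-numbered libraries deviated together, the result with the replicate number as a block is given beside it.

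Within 2 h, DEX was followed by no called change in these genes when the replicate number was ignored. In siCtl cells 0 of 40 genes passed in edgeR's quasi-likelihood test at an adjusted p of 0.05, against 8.74% of all genes called higher and 7.2% lower. At an unadjusted p of 0.05, 2 were lower and 0 higher. For counts at an unadjusted p, here and below, the share of all genes is not given, so they lack a background. The median log2 fold change was -0.13, and -0.00 over all genes. DESeq2 also called 0. In siGATA6 cells 0 of 40 passed as well (7.98% of all genes higher, 7.96% lower; median 0.04), with 1 lower and 0 higher at an unadjusted p of 0.05 and 1 called lower by DESeq2. The gene with the lowest log2 fold change was the same in both, IFIT2, a protein that binds viral RNA and limits its translation. IFIT2 was at 24.5, 22.5 and 32.2 CPM with vehicle and 15.6, 9.10 and 19.1 CPM with DEX in siCtl cells, so the groups did not overlap. Its log2 fold change of -0.89 ± 0.37 (SE, n = 3 per group) had an adjusted p of 0.165 in edgeR. With the replicate number as a block, IFIT2 passed at -0.86 ± 0.10 (edgeR adjusted p = 5.91e-07) in siCtl cells and at -0.95 ± 0.09 (adjusted p = 9.46e-09) in siGATA6 cells. With that block 3 of 40 genes were higher and 10 lower in siCtl cells (11.9% and 10.9% of all genes). In siGATA6 cells 6 were higher and 8 lower (11.1% and 11.8%). The share called higher in siCtl cells lay below that of all genes, and the other shares lay above it.

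IFIT2 also stood lowest after 4 h of DEX in DMSO cells, where it was the only called gene. Its levels were 122, 49.8 and 53.8 CPM in DMSO cells and 30.3, 12.7 and 14.9 CPM with DEX, with no overlap. IFIT2 fell 3.90-fold (log2 fold change -1.96 ± 0.57, edgeR adjusted p = 0.0284), 1 of 40 genes lower and 0 higher, against 4.78% and 7.77% of all genes. Leaving out replicate 1 of DMSO, or replicate 2 or 3 of DEX, at 4 h ended this call. With the block 6 genes were lower and 1 higher (6.19% and 9.21% of all genes), and IFIT2 was at -1.94 ± 0.16 (edgeR adjusted p = 1.4e-08). MX1 at the same time was 983, 398 and 593 CPM in DMSO cells and 788, 382 and 509.6 CPM with DEX, overlapping groups that did not pass (-0.23 ± 0.57, edgeR adjusted p = 0.938).

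In the AP1 experiment, too, IFIT2 had the lowest log2 fold change of the 41 genes with DEX, although 0 of 41 genes were called in siCtl, siFRA1 or siJUN cells by edgeR or DESeq2, and 0 had an unadjusted p under 0.05. IFIT2 was at 110.2, 50.4 and 85.6 CPM with vehicle and 52.4, 24.2 and 55.6 CPM with DEX in siCtl cells; the groups overlapped, and the log2 fold change was -0.90 ± 0.47 (edgeR adjusted p = 0.459). With the block, IFIT2 was the only called gene in siCtl cells (-0.89 ± 0.21, adjusted p = 0.0223; 3.9% of all genes lower) and in siJUN cells (-0.73 ± 0.18, adjusted p = 0.0215; 4.75% lower), and it missed the threshold in siFRA1 cells (-0.67 ± 0.18, adjusted p = 0.0542; 3.31% lower). Without the block 2.05%, 1.76% and 2.23% of all genes were called lower and 3.46%, 3.17% and 3.46% higher in the 3 kinds of cells. IFIT2 was singled out after its values were seen. After 24 h of DEX in DMSO cells it was the 9th lowest of 40 genes (-3.25 ± 0.61, edgeR adjusted p = 0.000683). Its 24 h effect differed from its 4 h effect by -1.29 ± 0.80 (edgeR adjusted p = 0.391). With the block this was -1.40 ± 0.22 (edgeR adjusted p = 0.000232), although the replicate numbers did not pair those libraries.

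After 24 h of DEX the programme was much lower. Of 40 tested genes 29 fell and 0 rose in edgeR's test, against 13% and 12.6% of all genes. All 40 had a negative log2 fold change, with a median of -2.16 against -0.02 over all genes. In bulk RNA, fewer cells that express a gene and less RNA of it per cell cannot be told apart. Of the antiviral effectors 15 of 19 were called lower, with a median log2 fold change of -3.04 over the 19, and 2 of 3 RNA sensors, 4 of 5 genes of the ISG15 system, 2 of 3 transcription factors and 6 of 9 other genes were called too.

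RSAD2, which encodes viperin, an enzyme that makes a chain-terminating nucleotide, was at 65.9, 27.8 and 37.8 CPM in DMSO cells and at 2.71, 1.02 and 1.22 CPM with DEX. Every DEX library lay far below the lowest DMSO library, and RSAD2 fell 26.0-fold (log2 fold change -4.70 ± 0.70, edgeR adjusted p = 7.54e-05). IFIT1, which binds RNA lacking the host's cap methylation, was at 167, 78.3 and 126 CPM against 13.4, 3.97 and 5.70 CPM and fell 16.0-fold (-3.997 ± 0.60, edgeR adjusted p = 8.7e-05). MX1 was at 880.1, 399.8 and 658 CPM against 78.9, 25.5 and 28.2 CPM and fell 14.6-fold (-3.87 ± 0.65, edgeR adjusted p = 0.000235). Neither gene's groups overlapped, and within each group replicate 1 was the highest. CMPK2, a mitochondrial nucleotide kinase beside RSAD2 on chromosome 2, was at 25.8, 12.6 and 22.8 CPM against 2.71, 1.59 and 1.29 CPM and fell 10.7-fold (-3.42 ± 0.57, edgeR adjusted p = 0.000203). SAMD9L, a restriction factor of poxviruses, fell 10.4-fold (-3.38 ± 1.01, edgeR adjusted p = 0.0199) from 12.0, 4.39 and 30.9 CPM to 1.52, 0.132 and 3.34 CPM, a wide spread within each group.

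Genes that carry or control the signal were lower as well. ISG15, the ubiquitin-like modifier, was at 315, 183 and 260.6 CPM in DMSO cells and 127, 74.8 and 79.0 CPM with DEX, without overlap, and fell 2.70-fold (-1.43 ± 0.37, edgeR adjusted p = 0.00846). USP18, the protease that removes ISG15 and restrains IFNAR2 signalling, fell 3.87-fold (-1.95 ± 0.38, adjusted p = 0.000855 in edgeR) from 23.2, 11.5 and 21.8 CPM to 5.48, 4.24 and 4.94 CPM. IRF7, the factor that amplifies interferon production, fell 3.55-fold (-1.83 ± 0.25, edgeR adjusted p = 2.06e-05), while IRF9 fell 1.61-fold (-0.69 ± 0.13, adjusted p = 0.000353). STAT2 did not pass (-0.52 ± 0.21, edgeR adjusted p = 0.0801), and nor did the abundant IFI6 (-0.81 ± 0.48, adjusted p = 0.254) and IFITM1 (-0.83 ± 0.61, adjusted p = 0.37). OAS1, which makes the activator of RNase L, fell 7.44-fold (-2.90 ± 0.59, edgeR adjusted p = 0.00131). CXCL10 was untested; it had 0.221, 0.311 and 0.408 CPM in DMSO cells and 0 counts in the 3 DEX libraries. With the block all 40 genes were lower (16% of all genes), within 1.5 times the main count.

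**Figure D2:**
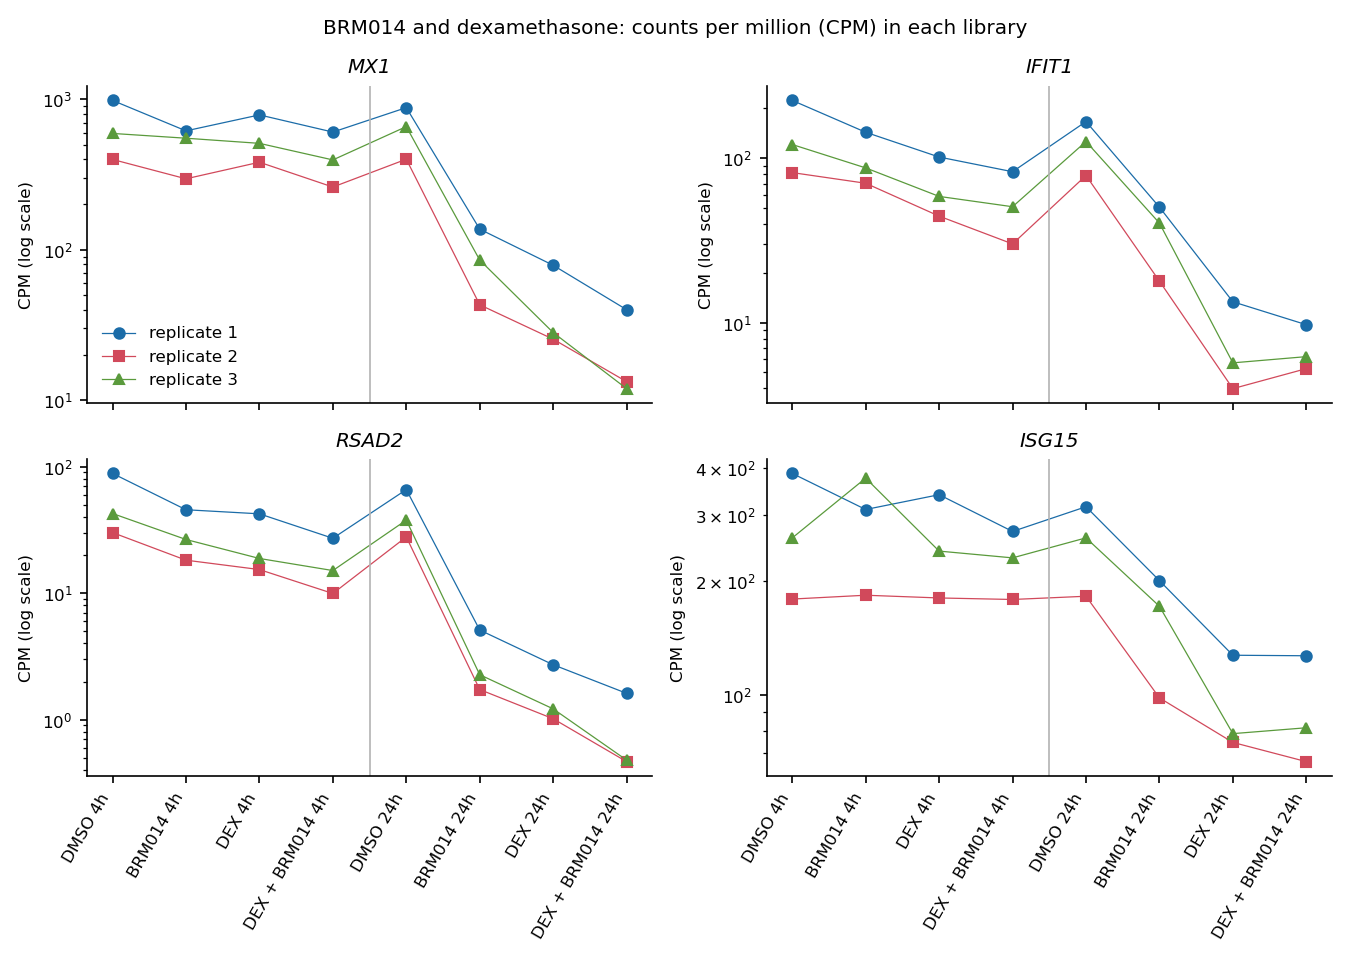
CPM (vertical axes, log scale) of MX1, IFIT1, RSAD2 and ISG15 in the 24 libraries of the BRM014 experiment, with groups on the horizontal axis, the 4 h groups left of the grey line and the 24 h groups right of it; symbols and thin lines join libraries of the same replicate number. RSAD2 falls from 27.8 to 65.9 CPM in DMSO 24 h cells to 1.02 to 2.71 CPM with DEX, and replicate 2 is below replicate 1 in every group.

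The programme was also lower after 24 h of BRM014 alone. In edgeR's test 34 of 40 genes fell and 0 rose, against 16.4% and 15.1% of all genes, and the median log2 fold change was -1.62 against 0.01 over all genes. The called genes were 18 of 19 antiviral effectors, 2 of 3 RNA sensors, 3 of 5 genes of the ISG15 system, 3 of 3 transcription factors, the secreted LGALS3BP, and 7 of 9 other genes. RSAD2 was at 5.11, 1.73 and 2.26 CPM with BRM014, below every DMSO library, and fell 14.5-fold (-3.86 ± 0.65, edgeR adjusted p = 0.000199). IFI44L, an interferon-induced regulator of the response itself, was at 130.4, 32.4 and 84.8 CPM in DMSO cells and 12.1, 1.21 and 4.13 CPM with BRM014 and fell 14.3-fold (-3.83 ± 0.95, edgeR adjusted p = 0.00476). OASL, which enhances RNA sensing, fell from 54.7, 26.4 and 23.9 CPM to 3.45, 2.69 and 3.34 CPM (-3.47 ± 0.51, edgeR adjusted p = 4.53e-05). These 3 genes showed no overlap between the groups.

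IFIT3, the partner that stabilizes IFIT1, was at 155, 73.2 and 87.5 CPM in DMSO cells and 14.8, 6.43 and 11.2 CPM with BRM014 (-3.28 ± 0.56, edgeR adjusted p = 0.000205), and IFIT2 fell by 3.10 on the log2 scale. MX1 fell 7.30-fold to 137, 43.1 and 85.5 CPM (-2.87 ± 0.62, edgeR adjusted p = 0.0016), and OAS1 8.05-fold (-3.01 ± 0.59, adjusted p = 0.000728). IFIT1 fell 3.42-fold to 50.3, 17.9 and 40.3 CPM (-1.77 ± 0.54, edgeR adjusted p = 0.0184), and USP18 2.40-fold (-1.26 ± 0.37, adjusted p = 0.0127). IRF7 fell 1.95-fold (-0.97 ± 0.25, edgeR adjusted p = 0.00488), IRF9 1.35-fold (-0.43 ± 0.13, adjusted p = 0.0116) and STAT2 1.59-fold (-0.67 ± 0.21, adjusted p = 0.02). ISG15, at 201, 98.2 and 172 CPM, overlapped the DMSO libraries and did not pass (-0.69 ± 0.37, edgeR adjusted p = 0.176). The other genes not called were IFI6 (-0.65), IFI27 (-1.53), HERC5 (-0.91), SAMD9 (-1.36) and DDX60 (-0.00 ± 0.79 in log2, edgeR adjusted p = 0.998).

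SAMD9, SAMD9L and DDX60 varied widely between libraries of the BRM014 experiment. DDX60, a helicase that promotes RNA sensing, was at 71.2, 6.47 and 58.2 CPM with 24 h of BRM014 and at 43.8, 25.5 and 66.8 CPM in DMSO cells. SAMD9 was at 9.63, 6.04 and 44.2 CPM in DMSO 24 h cells and at 14.5, 0.362 and 8.62 CPM with BRM014. SAMD9L was at 4.15, 0.0804 and 3.49 CPM with BRM014. With 24 h of BRM014, replicate 2 was far below the other libraries for all 3 genes. Such wide differences were not confined to the list. With the block, replicate 2 differed from replicate 3 by -1.78 in log2 for ZEB1, a gene outside the list, and by -2.01 for SAMD9. Fold changes of SAMD9, SAMD9L and DDX60 in this experiment rest on libraries that disagree among themselves.

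Compared directly at 24 h, DEX and BRM014 differed for 6 of the 40 genes. This comparison was chosen after the separate results were known. In edgeR's test 2 genes were higher and 4 lower with DEX than with BRM014, against 21.3% and 20.3% of all genes, and the median log2 difference was -0.32 against -0.03 over all genes. Lower with DEX was IFIT1 (7.69 ± 5.01 against 36.2 ± 16.6 CPM, log2 difference -2.22 ± 0.57, edgeR adjusted p = 0.00444). So were HERC5, the main ligase that attaches ISG15 (-1.12 ± 0.41, adjusted p = 0.0348), IFI35 (-1.01 ± 0.18, adjusted p = 0.000162) and IRF7 (-0.86 ± 0.25, adjusted p = 0.0093). Higher with DEX were EPSTI1 and IFITM1. EPSTI1, named for its induction in epithelium by stroma, did not overlap between DEX, BRM014 and DMSO cells. It was at 33.0, 23.3 and 30.8 CPM with DEX and 8.64, 5.46 and 8.18 CPM with BRM014 (1.97 ± 0.35, edgeR adjusted p = 0.000171), and at 76.9, 40.4 and 48.4 CPM in DMSO cells. IFITM1, a membrane protein that blocks viral entry, was at 266.9, 137 and 79.4 CPM with DEX and 90.2, 34.0 and 28.3 CPM with BRM014 (1.67 ± 0.63, edgeR adjusted p = 0.0423), and those groups overlapped. MX1 (-0.999 ± 0.59, edgeR adjusted p = 0.19), RSAD2 (-0.84 ± 0.70, adjusted p = 0.364) and OAS1 (0.11 ± 0.57, adjusted p = 0.895) did not pass. With the block 25 genes were called, 7 higher and 18 lower with DEX (23.7% and 23.1% of all genes). The title of the DEX group names DMSO as well and that of the BRM014 group does not, and doses of the compounds differ.

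**Figure D3:**
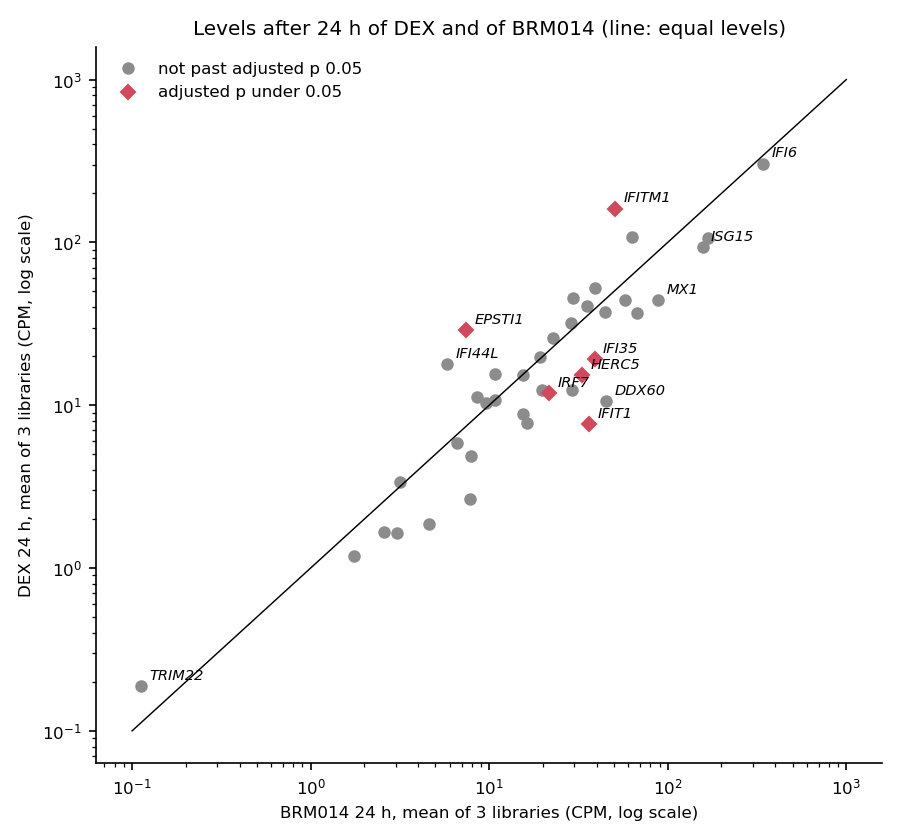
Mean CPM of each tested gene after 24 h of BRM014 (horizontal axis) and after 24 h of DEX (vertical axis), both on log scales; the line marks equal levels and diamonds the 6 genes with an edgeR adjusted p under 0.05 between the treatments. IFIT1, HERC5, IFI35 and IRF7 lie below the line, and EPSTI1 and IFITM1 above it.

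Given together for 24 h, DEX and BRM014 took the share of counts in the 42 genes to 0.159%, 0.0737% and 0.0762%, against 0.248%, 0.112% and 0.159% with BRM014 and 0.200%, 0.105% and 0.108% with DEX. Adding DEX to BRM014 lowered 5 of 40 genes in edgeR's test, IFIT1, MX1, OASL, IFI35 and PARP9, and raised 0, against 6.21% and 7.55% of all genes (median -0.95). IFIT1 went from 50.3, 17.9 and 40.3 to 9.72, 5.26 and 6.22 CPM (-2.35 ± 0.57, edgeR adjusted p = 0.00881), and MX1 from 137, 43.1 and 85.5 to 40.0, 13.3 and 12.0 CPM (-2.02 ± 0.60, adjusted p = 0.0332). Neither pair of groups overlapped. IFI35, whose protein binds NMI, fell by 1.05 ± 0.18 on the log2 scale (edgeR adjusted p = 0.000389), PARP9 by 0.93 ± 0.20 (adjusted p = 0.00341) and OASL by 1.87 ± 0.59 (adjusted p = 0.0441). The count was 2, 3 and 9 without replicate 2, 3 and 1 of the combined treatment, 10 and 3 without replicate 2 and 1 of BRM014, and 30 lower (8.78% of all genes) with the replicate block.

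Adding BRM014 to DEX lowered 10 of 40 genes and raised 0, against 17.9% and 17.6% of all genes (median -0.63). EPSTI1 fell from 33.0, 23.3 and 30.8 to 7.51, 3.81 and 5.47 CPM (-2.37 ± 0.35, edgeR adjusted p = 4.08e-05), and UBE2L6, the E2 enzyme for ISG15, fell by 1.11 ± 0.29 on the log2 scale (adjusted p = 0.0054). IFIT3 (-1.59 ± 0.56, edgeR adjusted p = 0.0357), OAS1 (-1.61 ± 0.60, adjusted p = 0.0446) and PLSCR1, a scramblase that enhances the response (-0.81 ± 0.29, adjusted p = 0.0351) fell as well, while IFIT1 did not pass (-0.13 ± 0.57, adjusted p = 0.898). The count was 3 without replicate 2 of the combined treatment, 4 without its replicate 3 or without replicate 1 of DEX, 5 when only library totals were used for scaling, and 2 higher and 20 lower with the block (20% and 20.3% of all genes).

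In the interaction test of DEX with BRM014 at 24 h 1 of 40 genes passed without the block, IRF7, against 3.77% of all genes higher and 2.78% lower. IRF7 was at 48.4, 33.6 and 44.9 CPM in DMSO cells, 15.5, 11.3 and 8.81 CPM with DEX, 26.0, 17.9 and 21.0 CPM with BRM014 and 20.5, 16.9 and 14.6 CPM with both. The difference of the DEX effects was 1.51 ± 0.35 on the log2 scale (edgeR adjusted p = 0.0114), that is, the DEX effect on IRF7 was nearer to 0 with BRM014 (-0.32 ± 0.25, adjusted p = 0.472). Over the 40 genes the median interaction was 1.10 against 0.00 over all genes, and 38 had a positive value. At an unadjusted p of 0.05, 15 were higher and 0 lower. The share of all genes at that unadjusted threshold is not given, so the 15 cannot be set against it. The replicate numbers did not pair these libraries; with them as a block 28 genes were higher and 0 lower (6.1% and 4.19% of all genes). The count without the block was 2 without replicate 1 of DEX or replicate 2 of the combined treatment.

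At 4 h BRM014 was followed by no call, with 0 of 40 genes past the adjusted threshold in edgeR both without DEX (median -0.42; 4.61% of all genes higher, 4.06% lower) and with DEX (median -0.33; 5.38% and 7.44%). At an unadjusted p of 0.05, 3 and 4 genes were lower, and DESeq2 called 0 and 1. The paired comparison with DEX called 12 genes lower and 0 higher with the block, against 9.04% and 6.81% of all genes. Unlike for DEX in DMSO cells at 4 h, the replicate numbers did not pair the libraries in the other 4 h comparisons, all with BRM014. The block there gave 0 genes higher and 10 lower for BRM014 (6.58% and 5.77% of all genes), and 0 and 8 for DEX in BRM014 cells (4.76% and 3.3%). For the interaction it gave 1 and 0 (0.901% and 2.21%). The gene was IFIT2 (1.20 ± 0.21, edgeR adjusted p = 0.00195), at 1.22 ± 0.78 without the block (adjusted p = 0.935). With DEX in BRM014 cells IFIT2 was the 4th lowest of 40 genes (-0.75 ± 0.55, edgeR adjusted p = 0.627). With the block it was at -0.74 ± 0.15 there (edgeR adjusted p = 0.00297). Without the block DEX in BRM014 cells at 4 h gave 0 calls (median -0.17), with 1 lower at an unadjusted p of 0.05. Of all genes 3.79% were called higher and 2.33% lower there. The 4 h interaction gave 0 without the block (0.564% of all genes higher, 1.73% lower), with 0 at an unadjusted p of 0.05. DESeq2 called 0 in both comparisons. RSAD2 was at 88.4, 30.1 and 42.6 CPM in DMSO cells at 4 h, 45.6, 18.2 and 26.6 CPM with BRM014 and 42.4, 15.4 and 18.8 CPM with DEX, overlapping ranges with log2 fold changes of -0.84 ± 0.57 and -1.08 ± 0.57 (edgeR adjusted p = 0.43 and 0.314).

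The effects at 24 h were tested against those at 4 h. The DEX effect was lower at 24 h for 15 of 40 genes and higher for 0, against 6.28% and 2.61% of all genes, with a median difference of -1.82. RSAD2 (-3.63 ± 0.88, edgeR adjusted p = 0.0143), MX1 (-3.63 ± 0.84, adjusted p = 0.0102), IFIT1 (-2.93 ± 0.77, adjusted p = 0.0235), USP18 (-2.03 ± 0.52, adjusted p = 0.019) and IRF7 (-1.70 ± 0.35, adjusted p = 0.00356) were among them. The count was 7 without replicate 1 of DEX 4 h, replicate 1 of DMSO 24 h or replicate 2 of DEX 24 h, and 8 without replicate 2 or 3 of DMSO 4 h. The BRM014 effect was lower at 24 h for 7 genes, OAS2, OASL, RSAD2, TRIM22, UBE2L6, IRF9 and EPSTI1, against 6.55% of all genes lower and 2.89% higher (0 members). For EPSTI1 the difference was -2.23 ± 0.47 (edgeR adjusted p = 0.00474), and for RSAD2 it was -3.02 ± 0.84 (adjusted p = 0.0296). That count was 2 without replicate 3 of DMSO 4 h, replicate 1 of BRM014 4 h, replicate 1 of DMSO 24 h, or replicate 2 or 3 of BRM014 24 h. It was 3 without replicate 2 of DMSO 4 h, 4 without replicate 3 of BRM014 4 h and 11 without replicate 1 of DMSO 4 h. The replicate numbers did not pair these libraries either. With them as a block, the DEX effect was lower at 24 h for 32 genes and higher for 0 (8.9% and 4.47% of all genes), and the BRM014 effect for 33 and 0 (9.48% and 4.5%). Between DMSO cells at 24 h and 4 h, 0 of 40 genes passed in edgeR or DESeq2, 0 had an unadjusted p under 0.05, and 0 of all genes were called by edgeR.

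**Figure D4:**
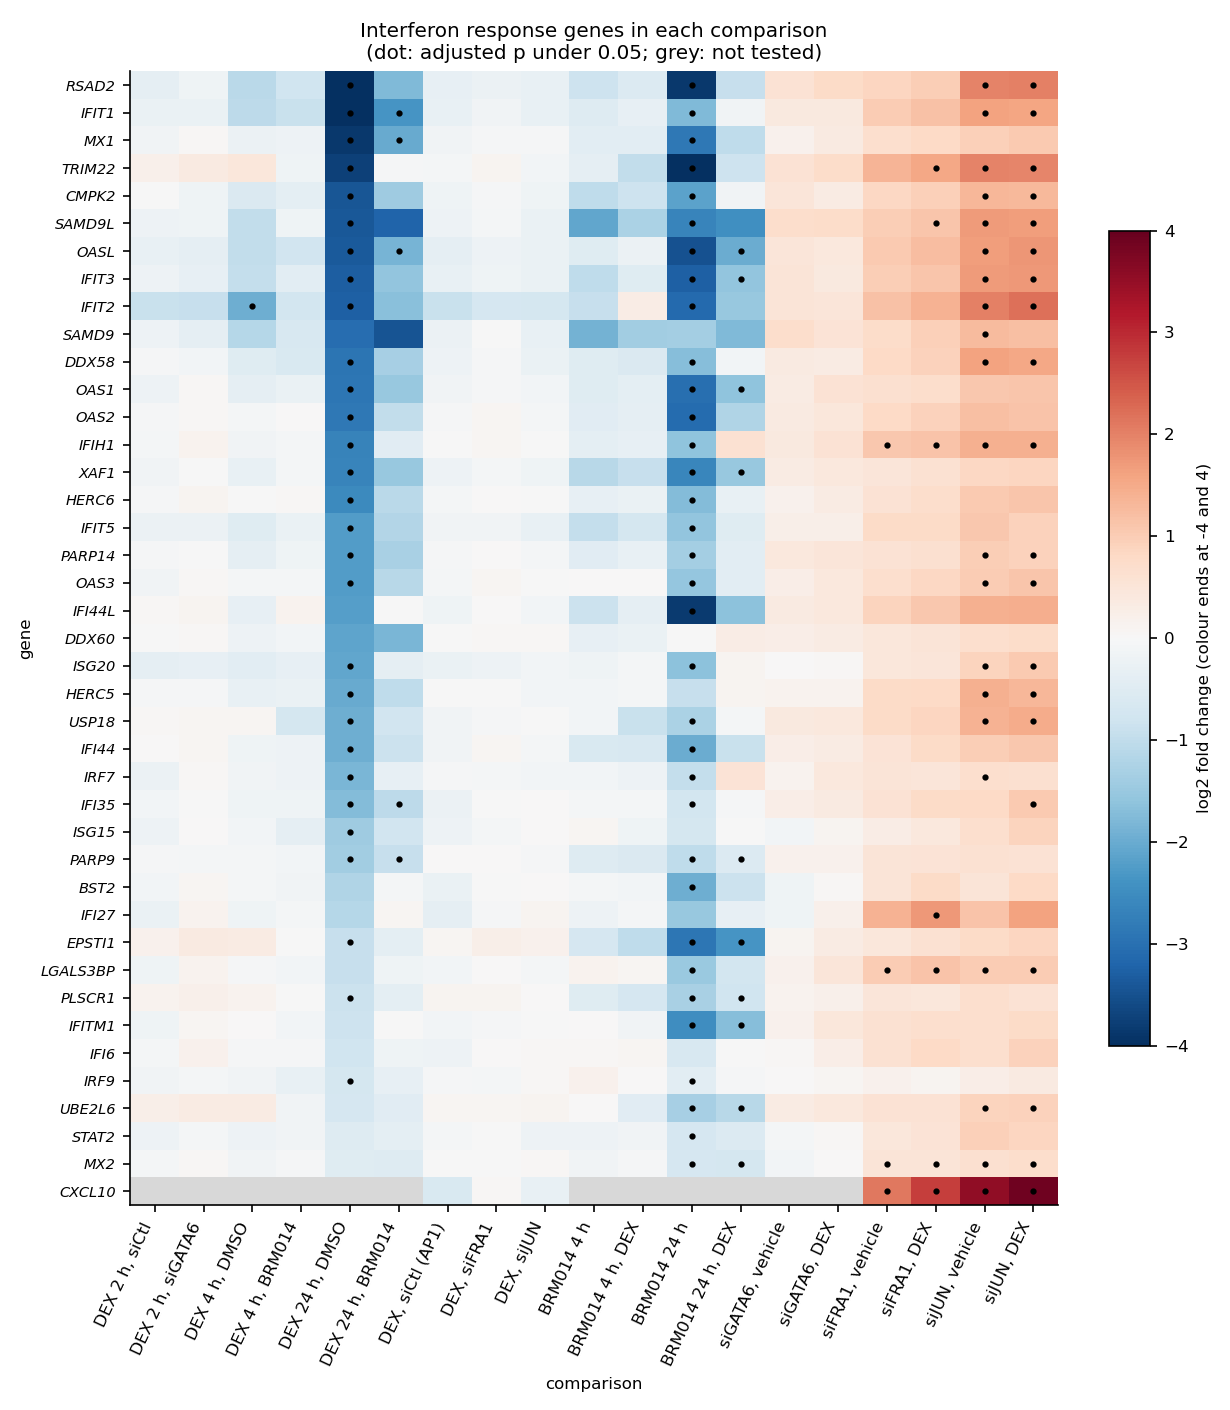
Log2 fold change (colour) of each tested gene (rows, ordered by the 24 h DEX effect) in 19 comparisons (columns); dots mark an edgeR adjusted p under 0.05 without the replicate block, grey cells were not tested, and colours end at -4 and 4. The 24 h DEX and BRM014 columns hold 29 and 34 dots on the lower side and the siJUN vehicle and DEX columns 21 and 20 on the higher side.

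After knockdown of GATA6 most of the genes were slightly higher, and the call depended on whether the replicate number was used. In vehicle cells 35 of 40 genes had a positive log2 fold change with a median of 0.26, and in DEX cells 40 of 40 with a median of 0.38, but 0 genes passed in edgeR or DESeq2 in either, and 0 had an unadjusted p under 0.05 (12.1% and 11.1% of all genes higher, 11.6% and 11.5% lower). SAMD9L was at 27.7, 18.98 and 33.9 CPM in siCtl and 43.7, 31.7 and 59.6 CPM in siGATA6 vehicle cells, overlapping ranges with a higher value for each replicate number, at 0.71 ± 0.39 (edgeR adjusted p = 0.238). The replicate numbers paired the libraries of this experiment, and with them as a block 23 genes were higher and 2 lower in vehicle cells (17.1% and 15.7% of all genes) and 31 higher and 0 lower in DEX cells (16.4% and 16%). SAMD9L was then at 0.76 ± 0.06 (edgeR adjusted p = 9.38e-13) and RSAD2 at 0.61 ± 0.07 (adjusted p = 8.18e-09), whereas BST2 (-0.17, adjusted p = 0.0029) and IFI27 (-0.17, adjusted p = 0.0458) were lower. MX1 was at 359, 260.4 and 485 CPM against 385, 213 and 650.1 CPM and did not pass with the block either (0.09 ± 0.12, edgeR adjusted p = 0.624).

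The interaction of siGATA6 with DEX gave 0 calls in edgeR and DESeq2 and 0 at an unadjusted p of 0.05 (0.0935% of all genes higher, 0.245% lower), and 2 with the block, IFITM1 and IFI27, both higher (0.648% of all genes; 1.17% lower). The non-polyadenylated RN7SK was higher in siGATA6 vehicle libraries, at 11.7, 7.60 and 5.90 CPM against 2.70, 3.46 and 2.80 CPM (1.48 ± 0.32, edgeR adjusted p = 0.0076), as was the rRNA precursor RNA45S5 (50.9, 28.0 and 26.7 against 11.7, 10.7 and 11.6 CPM; 1.61 ± 0.34, adjusted p = 0.00961). Their part in the siGATA6 results was not tested.

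In the AP1 experiment the programme was higher after knockdown of JUN. In vehicle cells 21 of 41 genes rose and 0 fell in edgeR's test, against 3.68% and 3.14% of all genes. All 41 had a positive log2 fold change, with a median of 1.03 against -0.00 over all genes. The called genes were 12 of 19 antiviral effectors, IFIH1 and DDX58 of the RNA sensors, UBE2L6, HERC5 and USP18 of the ISG15 system, IRF7, CXCL10, LGALS3BP and PARP14. CXCL10, a chemokine that draws T cells, was at 0.453, 0.246 and 0.346 CPM in siCtl and 5.31, 4.53 and 2.56 CPM in siJUN cells, a rise of 11.7-fold from few counts (3.55 ± 0.54, edgeR adjusted p = 0.000351). RSAD2 was at 109, 47.5 and 97.8 CPM against 428, 269.996 and 298 CPM and rose 3.92-fold (1.97 ± 0.44, edgeR adjusted p = 0.0163). IFIT2 was at 110.2, 50.4 and 85.6 CPM against 474, 264.1 and 251.7 CPM and rose 4.03-fold (2.01 ± 0.45, edgeR adjusted p = 0.0178). None of the 3 overlapped between the groups, and in siJUN cells replicate 1 was the highest of each.

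TRIM22, a ubiquitin ligase that restricts HIV transcription, was at 23.7, 9.45 and 19.3 CPM against 84.2, 60.04 and 63.6 CPM (1.99 ± 0.41, edgeR adjusted p = 0.0111), and SAMD9L rose 3.26-fold (1.71 ± 0.32, adjusted p = 0.00621). IFIT1 rose 3.03-fold (1.60 ± 0.43, edgeR adjusted p = 0.0418), USP18 2.60-fold (1.38 ± 0.34, adjusted p = 0.0268) and IRF7 1.60-fold (0.68 ± 0.19, adjusted p = 0.0424). MX1 (0.95 ± 0.35, edgeR adjusted p = 0.138), OAS1 (1.08 ± 0.33, adjusted p = 0.0737), ISG15 (0.67 ± 0.31, adjusted p = 0.248), STAT2 (0.94 ± 0.28, adjusted p = 0.0626) and IRF9 (0.27 ± 0.10, adjusted p = 0.136) did not pass. MX1 nevertheless did not overlap, at 1268, 663 and 1424 CPM against 2360.2, 1876 and 2261 CPM. Without the block, the call count depended on single libraries. It was 3 without replicate 1 of siJUN, 5 without replicate 2 of siCtl, 9 without replicate 3 and 12 without replicate 1 of siCtl. These fits ignored the replicate number. The replicate numbers paired these libraries, and with the block all 41 genes were higher (9.05% of all genes).

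In DEX cells siJUN raised 20 of 41 genes and lowered 0, against 3.27% and 3.31% of all genes (median 1.07), among them IFIT2 (2.20 ± 0.47, edgeR adjusted p = 0.0144), RSAD2 (2.01 ± 0.44, adjusted p = 0.0174) and TRIM22 (1.95 ± 0.42, adjusted p = 0.0145). RSAD2 was at 75.4, 30.7 and 95.0 CPM in siCtl and 363, 201 and 244 CPM in siJUN cells with DEX, with no overlap. The count was 2 without replicate 1 of siJUN DEX, 4 without replicate 2 and 9 without replicate 1 of siCtl DEX, and 41 with the block (8.17% of all genes higher).

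**Figure D5:**
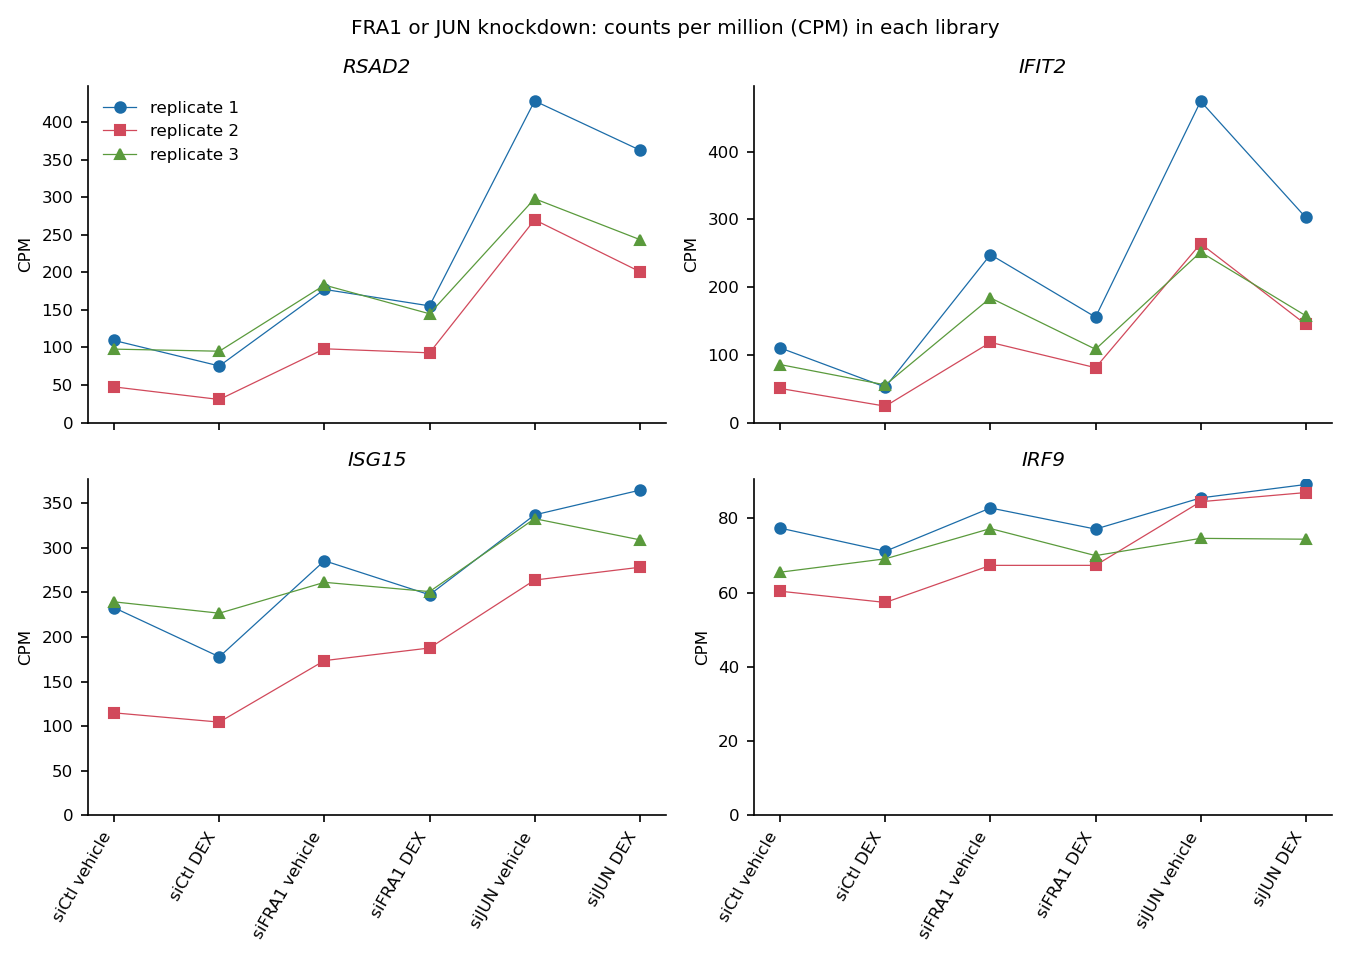
CPM (vertical axes, from 0) of RSAD2, IFIT2, ISG15 and IRF9 in the 18 libraries of the AP1 experiment, with groups on the horizontal axis; symbols and thin lines join libraries of the same replicate number. RSAD2 lies at 201 to 428 CPM in the 6 siJUN libraries and at 30.7 to 109 CPM in the 6 siCtl libraries, whereas IRF9 stays between 57.4 and 89.2 CPM in all 18.

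Knockdown of FRA1 went the same way with fewer calls. In vehicle cells 4 of 41 genes rose, CXCL10, IFIH1, LGALS3BP and MX2, and 0 fell, against 5.54% higher and 5.28% lower over all genes, with a median of 0.66. LGALS3BP, a secreted glycoprotein, was at 61.5, 36.6 and 52.4 CPM in siCtl and 125, 72.4 and 105 CPM in siFRA1 cells, without overlap (1.01 ± 0.28, edgeR adjusted p = 0.0354). IFIH1, which encodes the RNA sensor MDA5, was at 117, 64.4 and 105 CPM against 236, 149 and 215 CPM (1.07 ± 0.29, edgeR adjusted p = 0.0348). CXCL10 reached 2.05, 1.39 and 1.20 CPM (2.12 ± 0.62, edgeR adjusted p = 0.0306), and MX2, a restriction factor of HIV, rose by 0.52 ± 0.16 on the log2 scale (adjusted p = 0.042). RSAD2 did not pass (0.85 ± 0.43, edgeR adjusted p = 0.245) and its libraries, at 177, 98.3 and 183 CPM, overlapped those of siCtl. The count was 0 without replicate 2 of siCtl or replicate 1 of siFRA1 and 1 without replicate 3 of either, and with the block 39 genes were higher and 0 lower (12.5% and 12% of all genes). IRF9 and ISG15 were the 2 that were not.

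In DEX cells siFRA1 raised 7 of 41 genes, CXCL10, IFI27, TRIM22, IFIH1, LGALS3BP, SAMD9L and MX2, and lowered 0, against 6.16% and 6.71% of all genes (median 0.79). IFI27, a mitochondrial and nuclear envelope protein, was at 29.9, 10.1 and 29.8 CPM in siCtl and 88.7, 59.5 and 81.0 CPM in siFRA1 cells with DEX (1.72 ± 0.48, edgeR adjusted p = 0.033). The count was 0 and 2 without replicate 2 and 1 of siCtl DEX, 1 and 3 without replicate 1 and 3 of siFRA1 DEX, and 39 with the block (13.1% of all genes higher). In the interaction of either knockdown with DEX, 0 of 41 genes passed by edgeR, with or without the block, or by DESeq2, and 0 had an unadjusted p under 0.05. Over all tested genes edgeR also called 0 without the block in either interaction. With the block it called 0.022% higher and 0.022% lower in each, so the members did not stand apart from all genes here.

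The difference between the knockdowns was tested directly, a comparison chosen after the separate results were known. CXCL10 alone was higher with siJUN than with siFRA1 in vehicle cells (log2 difference 1.43 ± 0.42, edgeR adjusted p = 0.0381), 1 of 41 genes, against 3.76% of all genes higher and 4.72% lower, and the count was 0 without any 1 of the 3 siFRA1 libraries or without replicate 1 or 2 of siJUN. In DEX cells 0 genes passed in edgeR or DESeq2, with 4 higher at an unadjusted p of 0.05 (3.46% higher, 4.23% lower). With the block 14 genes were higher with siJUN in vehicle cells (9.64% of all genes) and 11 in DEX cells (9.67%), with RSAD2 at 1.15 ± 0.21 (edgeR adjusted p = 0.00245) in vehicle cells. LGALS3BP (-0.01 ± 0.27), BST2 (-0.00 ± 0.34), IFITM1 (0.05 ± 0.38) and IFI27 (-0.23 ± 0.44) had log2 differences whose standard errors span 0, and changes of either sign are within them.

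Genes above and beside the programme were described from a list of 52 pathway genes: 9 interferon ligands, 6 receptor chains, 3 signalling genes, 4 inhibitors, 14 genes of nucleic acid sensing and 16 further induced genes. After 24 h of DEX 21 of 40 tested were lower and 1 higher, against 13% and 12.6% of all genes. After 24 h of BRM014 21 of 40 were lower and 0 higher, against 16.4% and 15.1%. With vehicle, siJUN raised 17 of 42 and lowered 1, against 3.68% and 3.14%, and siFRA1 raised 5 of 42 and lowered 2, against 5.54% and 5.28%. By role, 8 of 13 tested genes of nucleic acid sensing were lower with DEX and 9 of 13 with BRM014 at 24 h, and 6 of 14 were higher and 1 lower with siJUN.

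TMEM173, which encodes STING, the adaptor of DNA sensing, was at 30.7, 26.9 and 14.8 CPM in DMSO cells, 1.40, 1.65 and 1.71 CPM with BRM014 and 16.6, 14.1 and 7.22 CPM with DEX. It fell 15.2-fold with BRM014 (-3.92 ± 0.33, edgeR adjusted p = 2.78e-08) and 1.90-fold with DEX (-0.92 ± 0.28, adjusted p = 0.0196). The direct difference was 3.00 ± 0.32 (adjusted p = 4.21e-07). The interferon receptor gene IFNAR1 did not pass with DEX (-0.08 ± 0.10, edgeR adjusted p = 0.599), BRM014 (-0.13 ± 0.10, adjusted p = 0.343) and siJUN (0.01 ± 0.08, adjusted p = 0.962). IFNGR1, a receptor chain for interferon gamma, rose 3.95-fold with 24 h of DEX (1.98 ± 0.17, edgeR adjusted p = 2.07e-08). SOCS1, an inhibitor of JAK kinases, rose after 2 h of DEX from 1.23 ± 0.264 to 6.06 ± 0.836 CPM (2.37 ± 0.20, edgeR adjusted p = 2.62e-09) and after 4 h (1.42 ± 0.21, adjusted p = 3.44e-05). SOCS1 did not pass after 24 h (0.45 ± 0.21, adjusted p = 0.13) and fell with 24 h of BRM014 (-1.58 ± 0.24, adjusted p = 2.88e-05).

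In siGATA6 vehicle cells 12 of 40 tested pathway genes rose and 1 fell, against 12.1% and 11.6% of all genes. Among those that rose was TLR3, the endosomal sensor of double-stranded RNA (0.89 ± 0.29, edgeR adjusted p = 0.0418). IRF1, a factor that shares binding letters with ISGF3, fell with DEX at 2 h (76.2 ± 4.10 to 26.2 ± 2.89 CPM), at 24 h (83.2 ± 5.45 to 43.9 ± 5.33 CPM) and in the AP1 experiment (95.2 ± 7.12 to 32.8 ± 4.27 CPM), with edgeR adjusted p-values of 4.76e-12, 2.86e-05 and 0.000289. It rose with siJUN to 191 ± 37.4 CPM (1.01 ± 0.20, edgeR adjusted p = 0.00769) and with siGATA6 to 125 ± 11.2 CPM (0.71 ± 0.07, adjusted p = 3.32e-07).

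The log2 fold changes were also set out by whether a promoter held the response element letters. The median log2 fold change was -2.09 over 23 genes with and -2.59 over 10 genes without a match after 24 h of DEX, -1.56 and -1.72 after 24 h of BRM014, and 1.00 and 0.99 over 24 and 10 genes after siJUN. These medians are descriptions of the lists, which share the same libraries.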

How the data were processed

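RNA sequencing was done on 54 libraries of BT549 cells, 3 in each of 18 groups. Raw read counts per gene were deposited by the authors, 1 table per library; per the submitters' processing notes the tools were featureCounts, DESeq2, bcl2fastq and SAMtools and the build GRCh38 (hg38), and per the file headers reads were primary STAR alignments in the AP1 experiment. Tool versions, gene annotation and strand setting: not given in the sources used here. The labels call the RNA of the AP1 experiment polyA, although the shared protocol describes removal of rRNA. The non-polyadenylated RN7SK was at 67.0 to 109.7 CPM in the AP1 libraries. It was at 2.38 to 11.9 CPM in the GATA6 and 0.512 to 3.19 CPM in the BRM014 libraries, both labelled total RNA. Which description of the AP1 RNA is right was not tested. The library numbers in the headers of the AP1 tables differ from those in the names under which they were deposited, so each was assigned to its sample by the deposited record; which number is right was not tested. MDA-MB-231 cells named by the series were not analysed here, and a table identical to 1 siCtl library was not used.

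From the counts, each experiment was fitted alone with edgeR 4.0.16 (R 4.3.3, limma 3.58.1): filterByExpr, TMM factors, robust quasi-likelihood tests on group means, and Benjamini-Hochberg adjustment over all tested genes, with calls at an adjusted p under 0.05. Library totals were 12888724 to 30530736 (GATA6), 13243316 to 29339329 (BRM014) and 10186607 to 16352524 (AP1), and 13897, 14547 and 13658 genes were tested, with a biological coefficient of variation of 5.57%, 18.8% and 9.80%. CPM use TMM factors; shares of counts use raw totals. Errors are SD over libraries or the SE of the fit. The fits were also run on simulated data drawn without a shared difference between replicate numbers, so those runs do not cover the one found here. Alternatives were the replicate number as a block, DESeq2 1.42.0, DESeq2 size factors, library totals alone, no filter, and leaving out each library; the fits without 1 replicate number in every group, and the comparisons of DEX with BRM014 and of siJUN with siFRA1, were added after seeing the data.

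Pairing was checked on 2000 genes outside the list: same-numbered libraries were taken as paired where every correlation of their deviations from group means was over 0.1. All 18 correlations in the GATA6 experiment (0.21 to 0.78) and all 45 in the AP1 experiment (0.19 to 0.86) were, and 63 of 84 in the BRM014 experiment (-0.29 to 0.98), where pairing was decided for each comparison. The genes and lists were chosen with earlier results of these data known. Named in the text are 12 genes shown throughout, up to 5 called genes with the largest change in each direction per main comparison (no overlap, and 5 CPM or more in the group with the higher mean), all members of counts of 5 or fewer, and called pathway genes; IFIT2 at early times, DDX60, SAMD9, RN7SK and RNA45S5 were added after their values were seen.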

Additional observations from a re-analysis of the deposited data

Results flagged for a closer look

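The effect of a treatment differed between conditions in an interaction test by edgeR for 3 comparisons. The DEX effect at 24 h differed with BRM014 for 1 of 40 genes, IRF7, by 1.51 on the log2 scale. The DEX effect differed between 24 h and 4 h for 15 of 40 genes, and of the genes shown throughout these were MX1 (-3.63), IFIT1 (-2.93), RSAD2 (-3.63), USP18 (-2.03) and IRF7 (-1.70), each a log2 difference of the 24 h effect from the 4 h effect. The BRM014 effect differed between 24 h and 4 h for 7 of 40 genes, among them RSAD2 (-3.02) and IRF9 (-0.62).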

How the results depend on the processing

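Counts are of called genes among the 42. For settings other than the main test and the block, the share of all genes called is not given beside them. A larger count under such a setting, DESeq2 included, may therefore go with more calls over all genes. DESeq2 size factors moved none of the 30 counts by over 1.5 times. With the replicate number as a block, 24 counts moved. DEX at 2 h gave 13 in siCtl and 14 in siGATA6 cells; siGATA6 gave 25 with vehicle, 31 with DEX and 2 in the interaction. At 4 h, DEX gave 7 in DMSO and 8 in BRM014 cells, BRM014 gave 10 without and 12 with DEX, and the interaction 1. At 24 h, DEX in BRM014 cells gave 30, BRM014 in DEX cells 22, the interaction 28 and DEX against BRM014 25; the change of the DEX effect from 4 h gave 32 and of the BRM014 effect 33, beside the shares of all genes given with these counts in the results. In the AP1 experiment DEX gave 1 in siCtl and 1 in siJUN cells, siFRA1 39 with vehicle and 39 with DEX, siJUN 41 and 41, and siJUN against siFRA1 14 and 11. The block changed no other of these counts by over 1.5 times.

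DESeq2 gave 1 for DEX at 2 h in siGATA6 cells, 1 for BRM014 with DEX at 4 h, 15 for DEX in BRM014 cells at 24 h, 5 for the 24 h interaction, 13 for the changed BRM014 effect, 10 for DEX against BRM014, 10 and 19 for siFRA1 (vehicle, DEX) and 34 and 36 for siJUN. Library totals alone gave 8 for DEX in BRM014 cells and 5 for BRM014 in DEX cells at 24 h, and moved the all-gene median by 0.15 for BRM014 at 24 h. Without the filter DEX in BRM014 cells gave 3, BRM014 in DEX cells 5, the changed BRM014 effect 4, siFRA1 with vehicle 1 and siJUN with vehicle 13. The cause was not tested.

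Leaving out single libraries gave 0 to 1 for DEX at 4 h, BRM014 at 4 h, BRM014 with DEX at 4 h and both comparisons of siJUN with siFRA1. At 24 h it gave 26 to 31 for DEX, 25 to 35 for BRM014, 2 to 10 for DEX in BRM014 cells, 3 to 14 for BRM014 in DEX cells, 1 to 2 for the interaction, 4 to 9 for DEX against BRM014, 7 to 20 for the changed DEX effect and 2 to 11 for the changed BRM014 effect. It gave 0 to 5 and 0 to 8 for siFRA1 with vehicle and DEX, and 3 to 15 and 2 to 17 for siJUN.

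Leaving out 1 replicate number in every group, with the block, gave 4 to 20 and 9 to 18 for DEX at 2 h in siCtl and siGATA6 cells, 18 to 31 and 21 to 32 for siGATA6 with vehicle and DEX, and 0 to 7 for their interaction. It gave 5 to 7 and 2 to 3 for DEX at 4 h in DMSO and BRM014 cells, 6 to 12 and 7 to 12 for BRM014 at 4 h without and with DEX, and 0 to 1 for the interaction. At 24 h it gave 33 to 39 for DEX, 36 to 37 for BRM014, 22 to 26 for DEX in BRM014 cells, 21 to 21 for BRM014 in DEX cells, 13 to 24 for the interaction (16 without replicate 2), 20 to 24 for DEX against BRM014, 26 to 31 for the changed DEX effect and 26 to 29 for the changed BRM014 effect. In the AP1 experiment it gave 0 to 6, 0 to 2 and 0 to 4 for DEX in siCtl, siFRA1 and siJUN cells, 10 to 36 and 12 to 38 for siFRA1, 21 to 39 and 22 to 41 for siJUN, and 3 to 23 and 1 to 20 for siJUN against siFRA1.

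Without 1 library 7 uncalled log2 fold changes changed sign, in 5 results. ISG15 with DEX at 2 h in siCtl cells ranged from -0.488 to 0.0813 and was 0.0482 without replicate 2 of DEX. With DEX at 2 h in siGATA6 cells IFI6 ranged from -0.0851 to 0.374, and RSAD2 from -0.593 to 0.350, with 0.0758 without replicate 2 of DEX. USP18 with siGATA6 ranged from -0.0536 to 0.695, and RSAD2 with BRM014 and DEX at 4 h from -1.03 to 0.0226. Depth limits CXCL10, CXCL11 and the interferon ligands.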
